A study of Mus musculus with 18 samples.

Results

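The serotonin receptors were examined in dorsal root ganglia (DRG) of mice that lack Nav1.7, Nav1.8 or Nav1.9, sodium channels of pain-sensing neurons. The set comprised 10 receptor genes, *Htr1a*, *Htr1b*, *Htr1d*, *Htr2a*, *Htr2b*, *Htr2c*, *Htr3a*, *Htr3b*, *Htr4* and *Htr5b*, with every probe set annotated to them. A probe set is a group of short array probes designed to read 1 transcript or closely related ones. *Htr2a* had no probe set in the annotation used here, so 9 genes with 15 probe sets were measured, of 18193 genes and 45037 probe sets in all. RNA from whole DRG of all spinal levels was hybridized to Affymetrix GeneChip mouse arrays, 18 arrays in 6 groups of 3. The Nav1.7 KO group came from floxed *Scn9a* mice crossed with Advillin-Cre, so that the gene was deleted from sensory neurons alone, and was set against its littermates. Nav1.8 KO lacked *Scn10a* in all tissues and Nav1.9 KO lacked *Scn11a* in all tissues, and each was set against littermates of its own line. The methods describe young adult mice of both sexes, without assigning a sex or an age to any array. Cre from the *Avil* locus was present only in this line, so its effects and those of Nav1.7 deletion cannot be told apart. Neither the labels nor the methods say whether an array held 1 animal. The spread behind each p-value is thus that of these samples, which may be partly technical. Nav1.7 KO and Nav1.8 KO arrays were mixed in *Xist*, a gene of female cells, as given below. Neither of these groups thus came from 1 animal alone. With 3 arrays a group, the smallest two-sided p of an exact permutation test is 0.1.

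Serotonin reaches sensory nerve endings from platelets and mast cells in injured skin, and it reaches their spinal terminals from neurons of the brainstem. Nearly all of its receptors signal through G proteins. The Htr1 and Htr5 classes couple to Gi/o and lower cyclic AMP, the Htr2 class couples to Gq and phospholipase C, and Htr4, Htr6 and Htr7 couple to Gs and raise cyclic AMP. The Htr3 class is instead a cation channel that serotonin opens directly. In DRG, *Htr1b* and *Htr1d* encode targets of the triptan drugs used against migraine, and *Htr3a* and *Htr3b* encode subunits of the channel.

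Arrays of a group were much alike, with correlations between replicates of 0.996 to 0.998. *Scn10a* lay between 7.76 and 7.89 in Nav1.8 KO arrays and between 8.96 and 9.74 in littermates, and *Scn11a* lay between 10.90 and 11.13 in Nav1.9 KO arrays and between 12.61 and 13.27 in littermates. *Scn9a* lay between 12.19 and 12.31 in Nav1.7 KO arrays and between 12.24 and 12.35 in littermates. The probe set for *Scn9a* may lie outside the deleted part, so it does not check those labels. *Avil*, a marker of sensory neurons, was present in all 18 arrays, at 12.21 to 12.94. By *Xist*, which female cells express, 7 arrays were high and 11 low. The Nav1.7 littermates were all *Xist*-high and the Nav1.8 and Nav1.9 littermates all *Xist*-low, and 2 of 3 Nav1.7 KO and 2 of 3 Nav1.8 KO arrays were *Xist*-high, with 0 of 3 Nav1.9 KO arrays. Both replicate 3 arrays of the Nav1.7 line, KO and littermate, stood apart from the rest in *Htr1a* and in genes of itch neurons, as described with *Htr1a*. All values are log2 intensities, on which a step of 1 is a doubling. A gene was compared between groups by its brightest probe set unless stated otherwise, and no probe set's level was set against that of another.

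Of the 9 measured receptor genes, 2 passed the test in Nav1.7 KO DRG and both were lower: *Htr4*, the Gs-coupled receptor, and *Htr5b*, a receptor of the Gi/o group. Over all genes, 4.33% passed in that comparison, and 2.51% passed with a lower level. The test was limma's moderated test with Benjamini-Hochberg adjustment over all 18193 genes and a threshold of 0.05. The median log2 difference of the 9 receptors was -0.00, beside 0.01 over all genes. Their KO and littermate arrays did not overlap for 2 of 9 genes, against 20.4% of all genes. The plot of every receptor by array shows these 2 genes as the ones with a clear gap in the Nav1.7 line.

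**Figure D1:**
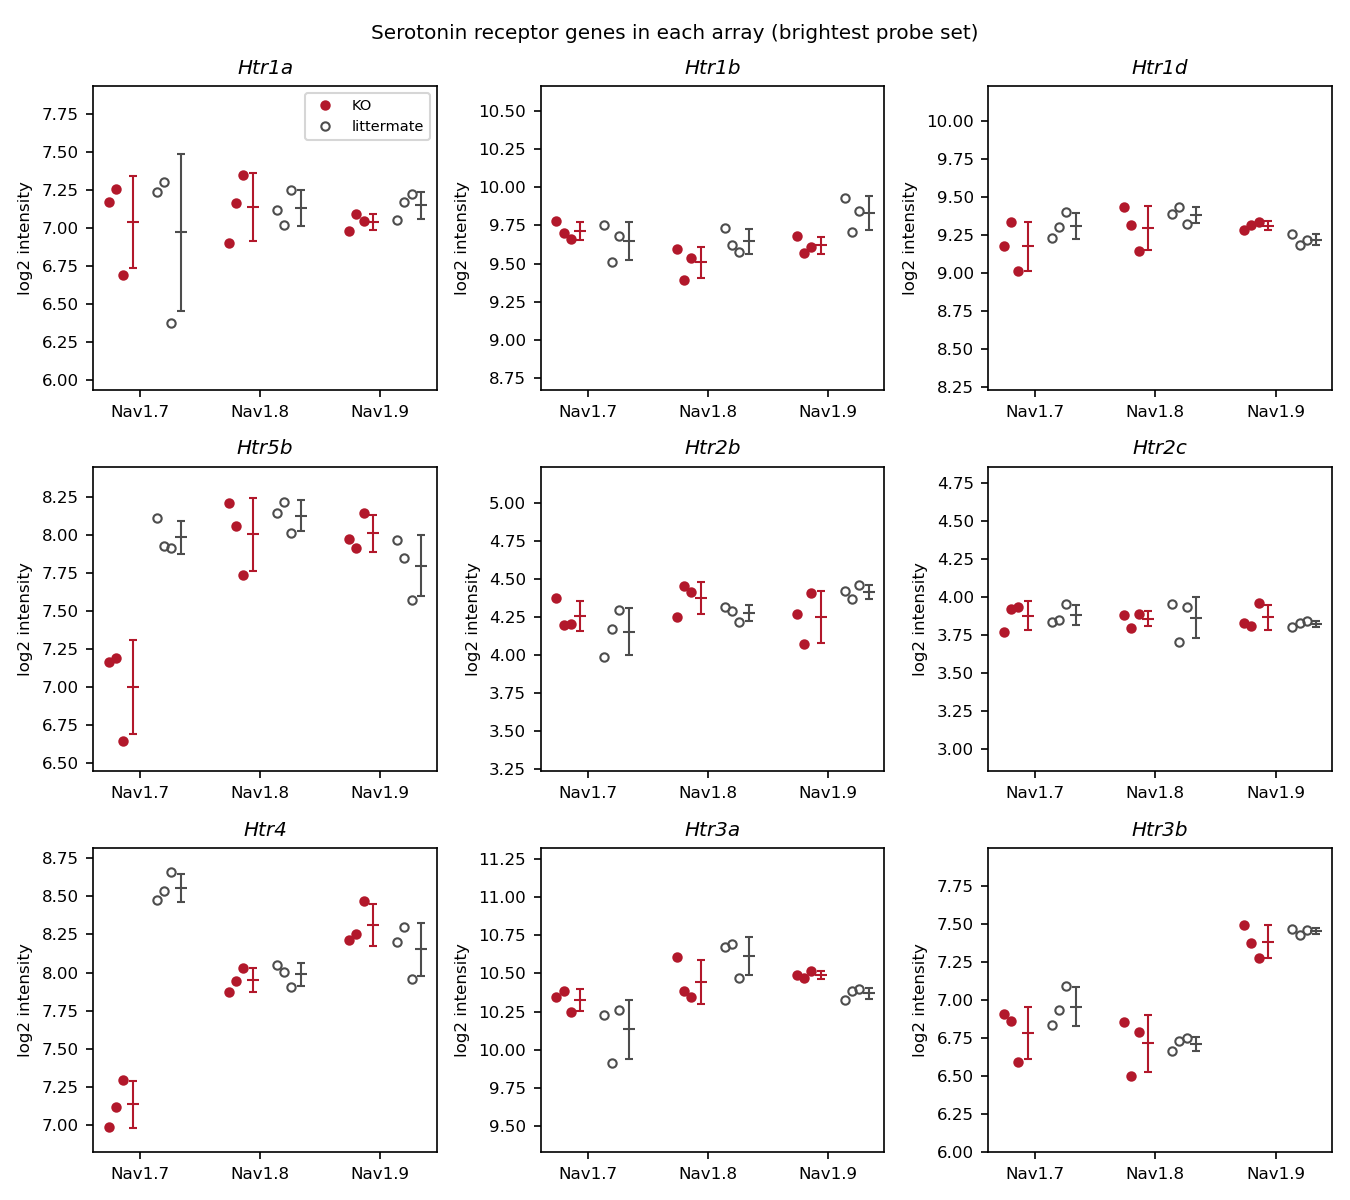
Log2 intensity (vertical axes) of the brightest probe set of the 9 measured serotonin receptor genes in the 18 arrays, by line (horizontal axes), with KO arrays as filled red points left of littermate arrays as open points. Bars give the mean and SD of 3 arrays. In the Nav1.7 line *Htr4* reached at most 7.30 in KO arrays and at least 8.48 in littermates, and *Htr5b* at most 7.19 in KO arrays and at least 7.92 in littermates.

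*Htr4* encodes the receptor through which serotonin raises cyclic AMP. It is best known in the gut, where agonists of it promote motility. Its brighter probe set, 1443365_at, read 6.99, 7.12 and 7.30 in Nav1.7 KO arrays, against 8.48, 8.53 and 8.66 in littermates. All 3 KO arrays were low, and they were also below every array of the other lines, the lowest of which read 7.87. The difference was -1.42 on the log2 scale (SE 0.0946, 95% confidence interval -1.62 to -1.22), a 2.68-fold decrease in the absence of Nav1.7 (adjusted p = 1.52e-07). Among all genes it ranked 15 by p, and 12 genes had a more negative difference. In whole DRG, fewer cells that express a gene and less RNA per cell cannot be told apart.

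The other *Htr4* probe set, 1427654_a_at, was dim, between 4.46 and 4.79 in all arrays. It read 4.57, 4.52 and 4.47 in Nav1.7 KO arrays, against 4.62, 4.64 and 4.79 in littermates. The KO arrays were again the lower ones, but the difference of -0.16 (95% confidence interval -0.28 to -0.04) did not pass over all probe sets (adjusted p = 0.185). With the mean of both probe sets in place of the brighter one, the *Htr4* difference was -0.79, and it still passed.

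Across the 6 groups, mean *Htr4* was 7.13 ± 0.155 in Nav1.7 KO and 8.56 ± 0.0926 in its littermates (SD, n = 3 arrays), 7.95 ± 0.0794 in Nav1.8 KO and 7.99 ± 0.0735 in its littermates, and 8.31 ± 0.137 in Nav1.9 KO and 8.15 ± 0.175 in its littermates. The order from low to high was thus Nav1.7 KO, Nav1.8 KO, Nav1.8 littermates, Nav1.9 littermates, Nav1.9 KO and Nav1.7 littermates. From Nav1.8 KO up to Nav1.9 KO, no neighbours in this order differed beyond the test's threshold, and the end neighbours were not tested.

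*Htr5b* encodes a Gi/o-type receptor of rodents whose human counterpart is a pseudogene. It read 7.17, 7.19 and 6.65 in Nav1.7 KO arrays, against 8.11, 7.93 and 7.92 in littermates. The KO arrays lay below all the others of the series, which were between 7.57 and 8.21. The difference was -0.98 (SE 0.144, 95% confidence interval -1.29 to -0.68), a 1.98-fold decrease (adjusted p = 0.000686, rank 130 by p). The third KO array was lower than its fellows. Without both replicate 3 arrays the difference was -0.84 (adjusted p = 0.00528).

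Both differences were also measured within 1 *Xist* class. Among the *Xist*-high arrays of the Nav1.7 line alone, the difference was -1.41 for *Htr4* (adjusted p = 2.48e-06) and -1.08 for *Htr5b* (adjusted p = 0.00109). With the Nav1.7 line fitted alone, both passed (adjusted p = 0.00184 for *Htr4* and 0.0327 for *Htr5b*). By the analysis of variance that the methods name, run on those 6 arrays, both had an unadjusted p under 0.01 and neither passed after adjustment.

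**Figure D2:**
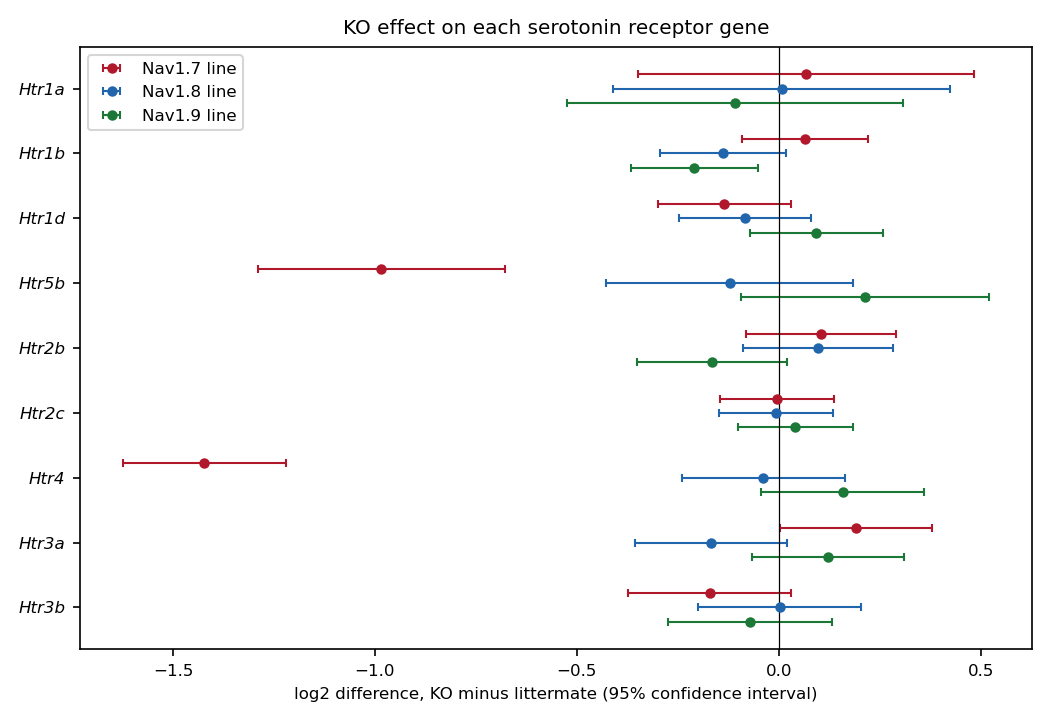
Log2 difference, KO minus littermate (horizontal axis), of each of the 9 measured serotonin receptor genes (rows) in the Nav1.7, Nav1.8 and Nav1.9 lines, with 95% confidence intervals from limma. The Nav1.7 points of *Htr4* at -1.42 and *Htr5b* at -0.98 lie apart from all others, which are between -0.21 and 0.21.

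The other Gi/o-coupled receptors did not pass in Nav1.7 KO DRG. *Htr1a*, the autoreceptor of serotonin neurons in the brain, averaged 7.04 ± 0.305 in Nav1.7 KO and 6.97 ± 0.515 in littermates (SD, n = 3 arrays), a difference of 0.07 with a wide interval of -0.35 to 0.48. *Htr1b* averaged 9.71 ± 0.0618 in Nav1.7 KO and 9.65 ± 0.126 in littermates, a difference of 0.06 (-0.09 to 0.22). *Htr1d*, which DRG neurons with peptide transmitters express, averaged 9.18 ± 0.161 in Nav1.7 KO and 9.31 ± 0.0860 in littermates, a difference of -0.13 (-0.30 to 0.03). For both triptan targets, the whole interval lay above that of *Htr4*.

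*Htr1d* was the receptor with the most probe sets, and the means of all 3 were lower in Nav1.7 KO DRG, by 0.12 to 0.23. The dimmest of them, 1422290_at, read 6.61, 6.76 and 6.74 in Nav1.7 KO arrays, against 6.82, 6.97 and 7.02 in littermates. Its arrays did not overlap, and the difference of -0.23 did not pass over all probe sets (adjusted p = 0.223). The brightest *Htr1d* probe set carries the suffix of probes that can also bind related transcripts.

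The Gq-coupled receptors gave dim signals in these ganglia. *Htr2b*, known from heart valve and gut, lay between 3.99 and 4.46 over all 18 arrays, and *Htr2c*, a receptor of brain and choroid plexus, between 3.71 and 3.96. Both fell under the 40th percentile of probe set brightness (5.65), which 7 of the 9 genes passed. Without detection calls, a low reading cannot be told from no transcript. The Nav1.7 KO differences were 0.10 (-0.08 to 0.29) for *Htr2b* and -0.00 (-0.15 to 0.14) for *Htr2c*. The second *Htr2c* probe set, 1435513_at, lay between 3.48 and 4.08 and differed by 0.04 in Nav1.7 KO, which did not pass.

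**Figure D3:**
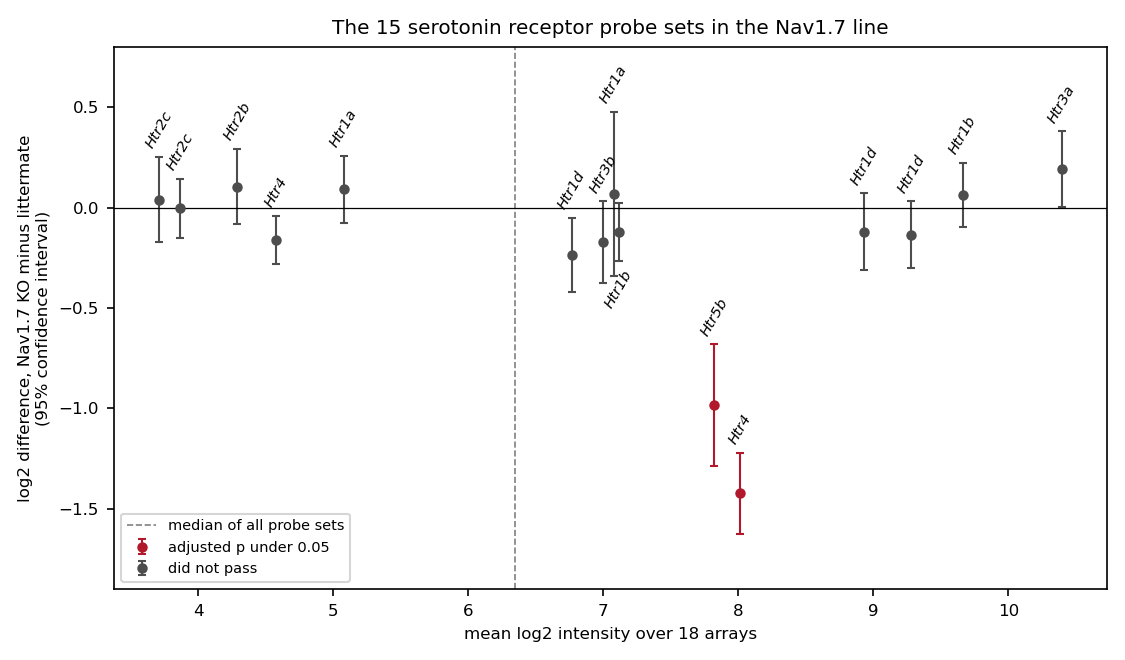
Log2 difference, Nav1.7 KO minus littermate (vertical axis, 95% confidence interval), of the 15 serotonin receptor probe sets against their mean log2 intensity over 18 arrays (horizontal axis). The 2 red points, *Htr4* and *Htr5b*, passed over all probe sets, as 2.27% of all probe sets did, and the dashed line is the median intensity of all probe sets, 6.34.

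The channel subunits did not pass in any KO comparison. *Htr3a*, the subunit that the channel cannot do without, read 10.35, 10.38 and 10.24 in Nav1.7 KO arrays, against 10.23, 9.91 and 10.26 in littermates. The groups overlapped, with 1 low littermate array, and the difference of 0.19 (0.00 to 0.38) did not pass (adjusted p = 0.295). Without that array, littermate replicate 2, it was 0.08 (adjusted p = 0.709). *Htr3b*, which changes the conductance of the channel, averaged 6.78 ± 0.170 in Nav1.7 KO and 6.96 ± 0.129 in littermates (SD, n = 3 arrays), a difference of -0.17 (-0.37 to 0.03). At an unadjusted p under 0.05, 3 of the 9 receptors differed in Nav1.7 KO DRG, *Htr3a* with *Htr4* and *Htr5b*, against 16.3% of all genes.

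In Nav1.8 KO DRG, 0 of 9 receptors passed by limma and 0 had an unadjusted p under 0.05, against 0.0165% and 8.09% of all genes. The 95% intervals ran from -0.43 to 0.42 over the 9 genes. *Htr4* read 7.87, 7.94 and 8.03 in Nav1.8 KO arrays, against 8.05, 8.002 and 7.91 in littermates, a difference of -0.04 (-0.24 to 0.16). *Htr5b* read 8.21, 8.06 and 7.74 in Nav1.8 KO arrays, against 8.15, 8.21 and 8.01 in littermates, a difference of -0.12 (-0.43 to 0.18). For both genes the groups overlapped, and by brightest probe set no receptor had KO and littermate arrays apart, which 13.8% of all genes had. The dim second *Htr4* probe set did have its Nav1.8 KO arrays just below the littermates, by a difference of -0.09 that did not pass (adjusted p = 0.719).

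In Nav1.9 KO DRG, 0 of 9 receptors passed by limma and 1 had an unadjusted p under 0.05, against 0.473% and 12.1% of all genes. That gene was *Htr1b*, which read 9.68, 9.57 and 9.61 in Nav1.9 KO arrays, against 9.93, 9.71 and 9.85 in littermates. Every KO array was lower, by a mean of 0.21 on the log2 scale (difference -0.21, -0.37 to -0.05, adjusted p = 0.265). The dimmer *Htr1b* probe set, 1422288_at, differed by -0.07 and did not pass.

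By brightest probe set, *Htr1d* and *Htr3a* also had Nav1.9 KO arrays apart from their littermates, on the higher side, which makes 3 of 9 receptors against 18% of all genes. *Htr3a* read 10.49, 10.47 and 10.52 in Nav1.9 KO arrays, against 10.33, 10.39 and 10.40 in littermates. The gap was narrow beside the spread of the model, and the difference of 0.12 (-0.07 to 0.31) did not pass. *Htr4* read 8.21, 8.25 and 8.47 in Nav1.9 KO arrays, against 8.20, 8.30 and 7.96 in littermates, a difference of 0.16 (-0.04 to 0.36). *Htr5b* read 7.97, 7.91 and 8.14 in Nav1.9 KO arrays, against 7.97, 7.85 and 7.57 in littermates, a difference of 0.21 (-0.09 to 0.52). For *Htr4* and *Htr5b* the mean was higher in Nav1.9 KO DRG, and the groups overlapped.

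Whether the KO effect differed between lines was tested directly. For *Htr4* the Nav1.7 effect was lower than the Nav1.8 effect by a difference of -1.38 (-1.67 to -1.10, adjusted p = 3.39e-05), and than the Nav1.9 effect by -1.58 (-1.86 to -1.30, adjusted p = 5.91e-06). For *Htr5b* the differences were -0.86 (-1.30 to -0.43, adjusted p = 0.038) and -1.20 (-1.63 to -0.76, adjusted p = 0.00365). Thus 2 of 9 receptors passed in each of the Nav1.7 contrasts, against 2.15% and 2.82% of all genes. Both contrasts share the Nav1.7 arrays. The *Htr5b* difference between Nav1.7 and Nav1.8 was the least secure, and it no longer passed without any 1 of the 3 Nav1.7 littermate arrays, Nav1.7 KO replicate 3, the 3 Nav1.8 littermate arrays or Nav1.8 KO replicate 1 or 2 (adjusted p = 0.051 to 0.0916). With the replicate number as a block it did not pass either (adjusted p = 0.0506). Between Nav1.9 and Nav1.8, 0 of 9 passed by limma against 0.0385% of all genes, and 2, *Htr3a* and *Htr2b*, had an unadjusted p under 0.05 against 9.04%.

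Receptors also differed between the 3 groups of littermates, where many genes did. Nav1.8 littermates differed from Nav1.7 littermates in 2 of 9 receptors (23.3% of all genes), Nav1.9 littermates from Nav1.7 littermates in 2 (12.2%) and Nav1.9 littermates from Nav1.8 littermates in 1 (12.8%). For the first and the last of these, the receptors' share was that of all genes, so the counts are no result about the receptors as a set. *Htr3a* was higher in Nav1.8 littermates than in Nav1.7 littermates, at 10.61 ± 0.123 and 10.13 ± 0.192 (SD, n = 3 arrays), a difference of 0.48 (adjusted p = 0.00138). *Htr4* was lower in Nav1.8 and Nav1.9 littermates than in Nav1.7 littermates, by differences of -0.57 (adjusted p = 0.000723) and -0.40 (adjusted p = 0.0111). These groups also differ in *Xist* class. With that class as a term, *Htr3a* (0.31, adjusted p = 0.122) and the Nav1.9 difference of *Htr4* (-0.33, adjusted p = 0.196) no longer passed. Line, breeding and hybridization batch cannot be told apart between littermates.

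*Htr3b* marked the Nav1.9 line rather than its KO. It read 7.49, 7.37 and 7.28 in Nav1.9 KO arrays, against 7.47, 7.43 and 7.46 in littermates, while the 12 arrays of the other lines lay between 6.50 and 7.09. KO and littermate overlapped, and all 6 arrays of the line stood above the rest, a separation in either direction that 1.33% of genes showed for this line and that was noticed after the values were seen. Nav1.9 littermates exceeded Nav1.7 littermates by 0.50 (adjusted p = 0.00303) and Nav1.8 littermates by 0.74 (adjusted p = 0.000604). The first of these did not pass with the *Xist* class as a term (0.34, adjusted p = 0.161), and the second is between groups of 1 class. *Htr3a* is the next gene to *Htr3b* on chromosome 9 in the RefSeq annotation (GRCm38.p6), with 0 genes between them, and its Nav1.9 arrays lay within the range of the others.

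*Htr1a* varied within groups more than 98.2% of genes, by an SD of 0.269 against a median of 0.0866 for all genes. Its lowest values were those of replicate 3 in the Nav1.7 line. *Htr1a* read 7.17, 7.26 and 6.69 in Nav1.7 KO arrays, against 7.24, 7.30 and 6.38 in littermates, so that in both groups the third array was the low one, and the other 16 arrays lay between 6.90 and 7.35. The second *Htr1a* probe set, 1450219_at, which was dim at 4.89 to 5.25, did not show this, with 5.25 in KO replicate 3, the highest of all arrays, and 5.08 in littermate replicate 3. *Htr1f*, the remaining triptan-binding receptor, which itch neurons of mouse DRG express, was low in both replicate 3 arrays. It read 6.43 in the KO and 6.57 in the littermate, against 6.92 to 7.95 in the others.

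Of 7 markers of itch neurons, 5 had both arrays below the other 16, against 1.95% of all genes. *Nppb*, the peptide with which these neurons signal to the spinal cord, read 7.44 in the KO and 7.88 in the littermate array, against 9.76 to 10.41 in the others. *Il31ra*, an itch cytokine receptor, read 7.10 in the KO and 7.23 in the littermate array, against 8.60 to 9.42. *Sst*, *Cysltr2* and *Nts* were likewise low in both arrays, and *Mrgpra3* was low in neither. *Osmr* was low in the littermate array alone, at 10.90 in the KO and 9.41 in the littermate array, against 10.27 to 11.19 in the others. The part of these markers in the *Htr1a* values was not tested. Without both arrays, 2 of 9 receptors still passed in Nav1.7 KO DRG, with *Htr4* at -1.45 (adjusted p = 2.98e-06).

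**Figure D4:**
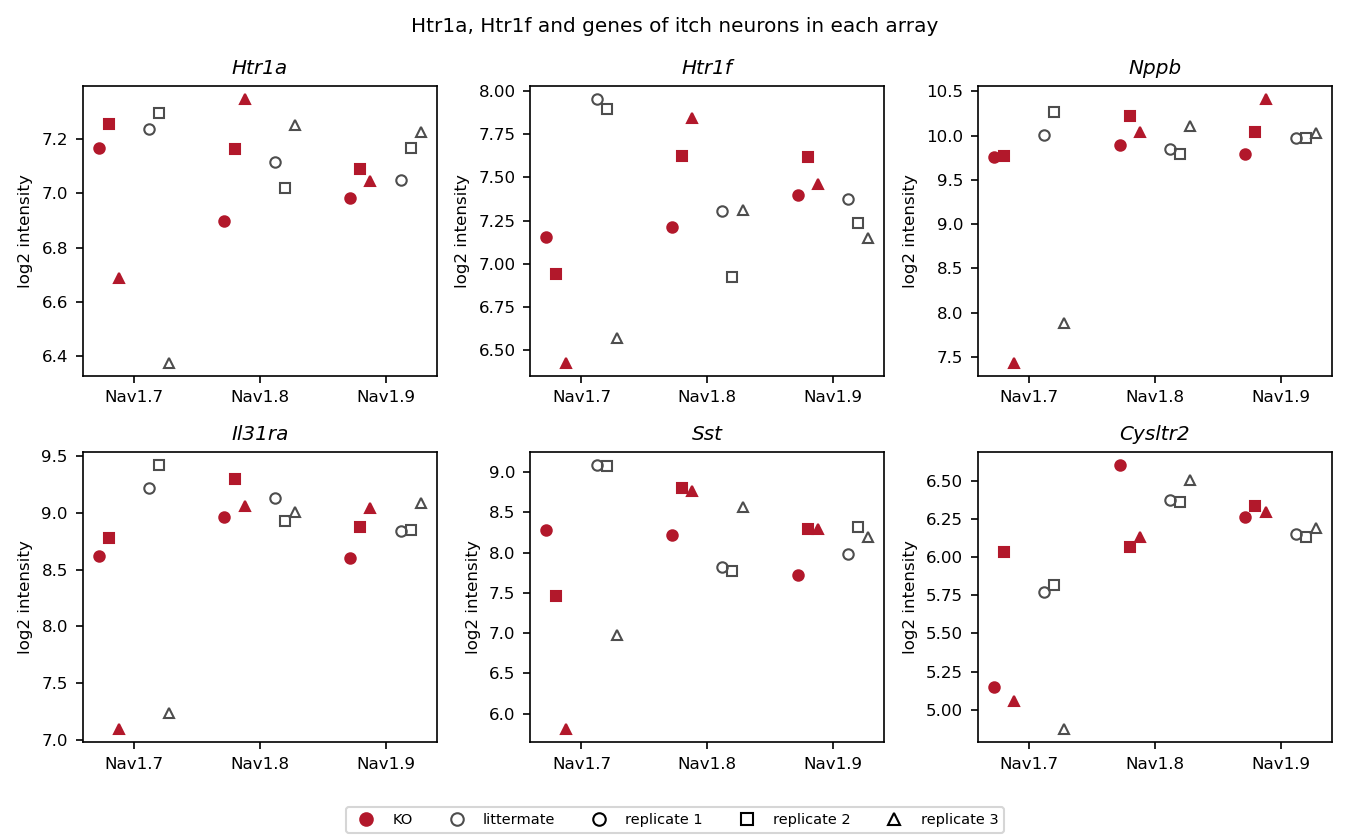
Log2 intensity (vertical axes) of *Htr1a*, *Htr1f* and 4 itch neuron genes in the 18 arrays, by line (horizontal axes), KO filled and left of littermate open, with a marker shape for each replicate number. The triangles of the Nav1.7 line, replicate 3 of KO and littermate, lie below the other 16 arrays in all 6 panels, for *Nppb* at 7.44 and 7.88.

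Of the other receptors, 0 of 4 measured passed by limma in Nav1.7 KO DRG (*Htr3c* was not measured), and 1 had an unadjusted p under 0.05, *Htr1f* at -0.63 (-1.23 to -0.02, adjusted p = 0.284). *Htr7*, a Gs-coupled receptor like *Htr4*, averaged 7.82 ± 0.0417 in Nav1.7 KO and 7.91 ± 0.0444 in littermates (SD, n = 3 arrays), a difference of -0.09 (-0.18 to 0.01). Among 15 measured genes that make, store, take up or break down serotonin, 2 rose and 1 fell in Nav1.7 KO DRG, against 4.33% of all genes that passed in either direction. An unadjusted p under 0.05 was reached by 5 of the 15 there, against 16.3% of all genes. In Nav1.8 and Nav1.9 KO DRG 0 of the 15 passed by limma, and 1 and 2 had an unadjusted p under 0.05.

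*Maoa*, the main enzyme of serotonin breakdown, read 9.62, 9.71 and 9.65 in Nav1.7 KO arrays, against 9.90, 9.98 and 9.90 in littermates. All KO arrays were lower, by a small margin (difference -0.27, adjusted p = 0.00138). *Slc29a4*, a low-affinity transporter of monoamines, was higher in Nav1.7 KO DRG by 0.23 (adjusted p = 0.0185), and *Qdpr*, which recycles the cofactor of serotonin synthesis, by 0.16 (adjusted p = 0.0141). For *Slc29a4* the Nav1.7 littermates, at 9.76 to 9.91, lay below the littermates of the other lines, at 10.06 to 10.17. *Tph2*, which makes serotonin in neurons, was dim, at 4.55 ± 0.0128 in Nav1.7 KO and 4.81 ± 0.0469 in littermates (SD, n = 3 arrays), and did not pass.

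**Figure D5:**
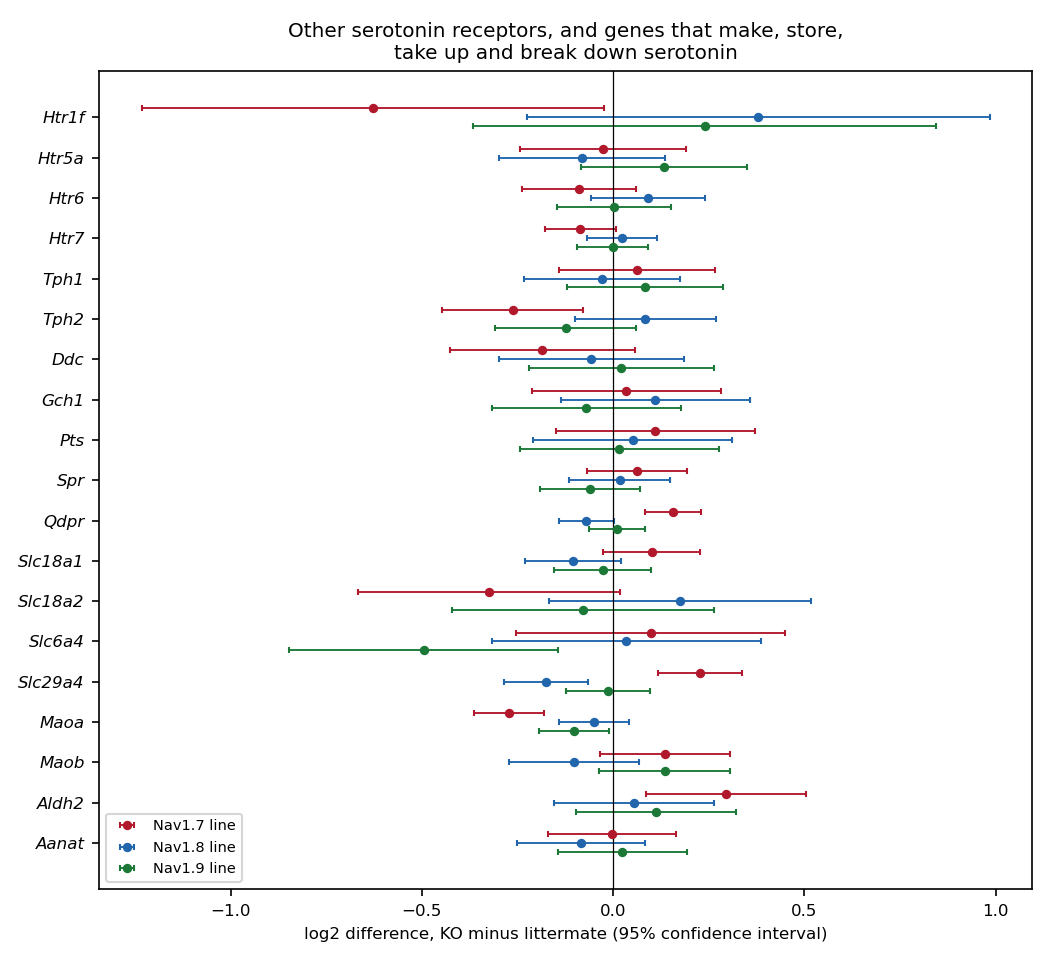
Log2 difference, KO minus littermate (horizontal axis, 95% confidence interval), of the other serotonin receptors and of genes that make, store, take up and break down serotonin (rows) in the 3 lines. *Maoa* at -0.27, *Slc29a4* at 0.23 and *Qdpr* at 0.16 in the Nav1.7 line passed the test.

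Signalling genes downstream of the receptors were tested as well, in lists chosen with earlier results of these data known. Each count that follows stands against 4.33% of all genes that passed in Nav1.7 KO DRG, 2.51% with a lower level, and against 16.3% with an unadjusted p under 0.05. Of 14 measured genes of the Gs pathway that *Htr4* uses, 3 fell and 1 rose in Nav1.7 KO DRG, with a median of 0.01 as over all genes, and 6 had an unadjusted p under 0.05. *Pde4d*, which degrades cyclic AMP, fell by 0.40 (log2, adjusted p = 7.47e-05). *Prkar2b* and *Prkacb*, subunits of the kinase that cyclic AMP activates, fell by 0.39 and 0.25. *Adcy8*, an enzyme that makes cyclic AMP, rose by 0.48 (adjusted p = 0.00869). *Prkacb* acts in transmitting the signal and *Pde4d* in ending it. *Gnas*, the Gs subunit itself, differed by 0.03.

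Of 13 genes of the Gi/o pathway, 3 fell and 0 rose, and no others had an unadjusted p under 0.05. All 3 encode regulators that shorten G protein signals. *Rgs8* read 6.73, 6.42 and 6.58 in Nav1.7 KO arrays, against 8.70, 8.74 and 8.54 in littermates. The groups were far apart, with 4.25-fold less signal in Nav1.7 KO (adjusted p = 1.73e-11). *Rgs10* fell by 0.51 and *Rgs4* by 0.33. Of 12 measured genes of the Gq pathway, 3 fell and 0 rose, *Prkcq* by 0.89, *Prkca* by 0.20 and *Plcb4* by 0.18, the last close to the threshold (adjusted p = 0.0498), and again no others had an unadjusted p under 0.05. Among 9 partners and chaperones of the receptors, 1 fell, *Mpdz*, a scaffold protein, by 0.21, and 2 had an unadjusted p under 0.05.

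Of 11 measured channels on which serotonin acts in sensory neurons, 1 rose and 1 fell in Nav1.7 KO DRG, and 5 had an unadjusted p under 0.05. *Trpv1*, the capsaicin and heat receptor that serotonin sensitizes, rose by 0.61 (adjusted p = 3.87e-06), and *Cacna1h*, a T-type calcium channel, fell by 0.38 (adjusted p = 0.00367). In Nav1.8 KO DRG 1 gene of this list fell, the targeted *Scn10a*, and in Nav1.9 KO DRG 1 fell, the targeted *Scn11a*. In the lists of other receptors, metabolism, G protein pathways and partners together, 14 of 67 genes passed in Nav1.7 KO DRG, against 4.33% of all genes. Of the 67, 20 had an unadjusted p under 0.05, against 16.3%. The lists were chosen with earlier results of these data known, so these counts are no test of the pathways as sets. Of the same 67, 0 passed by limma in Nav1.8 or Nav1.9 KO DRG. An unadjusted p under 0.05 was reached by 6 in Nav1.8 KO DRG, against 8.09% of all genes, and by 9 in Nav1.9 KO DRG, against 12.1%, which are shares near those of all genes.

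Markers of neuron types moved in the same arrays in which *Htr4* and *Htr5b* were low. Over all genes, 4.33% passed in Nav1.7 KO DRG, 1.81% with a higher and 2.51% with a lower level. An unadjusted p under 0.05 was reached by 16.3%, and KO and littermate arrays did not overlap for 20.4% of single genes. All 3 measured markers of C-fibre low-threshold mechanoreceptors, *Th*, *Tafa4* and *Zfp521*, fell in Nav1.7 KO DRG, *Th* by 2.26 on the log2 scale, and their summed linear intensity was 1605.36 to 1756.75 in Nav1.7 KO arrays and 3327.12 to 3687.22 in littermates. Among non-peptidergic nociceptor markers, 5 of 6 measured fell, *Prkcq*, *Cd55*, *Gfra2* and *Lpar3* by 0.31 to 0.89 and *Ret* by 0.16, with sums of 18993.7 to 20535.9 in Nav1.7 KO and 22592.7 to 23845.9 in littermates. Of 5 measured markers of peptidergic nociceptors, 3 rose, *Trpv1*, *Tac1* and *Adcyap1* by 0.31 to 0.61, with sums of 25679.5 to 26085.3 in Nav1.7 KO and 22274.1 to 22993.7 in littermates. The littermates of the Nav1.8 and Nav1.9 lines had higher peptidergic sums than Nav1.7 littermates. Those of Nav1.9 littermates, 24862.7 to 26534.1, spanned the Nav1.7 KO sums. Of 6 measured markers of myelinated neurons, 2 fell, *Ntrk2* by 0.25 and *Necab2* by 0.44, and of 7 of itch neurons 1 was higher, *Osmr* by 0.85 (adjusted p = 0.0325), with the low littermate array given above. Of 8 general markers of sensory neurons, 1 fell, *Avil* by 0.64, and 5 had an unadjusted p under 0.05. Cre from the *Avil* locus was present only in this line, and its part in the *Avil* value was not tested. The sums of these 8 markers, *Avil* among them, were 52429.2 to 53244.1 in Nav1.7 KO and 55678.8 to 57391.5 in littermates. Much of that gap is *Avil* itself, at 12.21 to 12.23 in Nav1.7 KO arrays and 12.80 to 12.94 in littermates (log2). The median log2 difference of the 8 markers was -0.08, beside 0.01 over all genes. Of 4 measured markers of satellite glia, 1 rose, *Fabp7* by 0.36. *Trpv1* and *Prkcq* are also in the channel and Gq lists. In the other lines, apart from the targeted *Scn10a*, 1 neuron marker passed, *Ret*. It fell by 0.22 in Nav1.9 KO DRG, where 0.473% of all genes passed. Some sums did not overlap in these lines either. Peptidergic sums were lower in Nav1.8 KO, at 21907.5 to 22502.3 against 23651.5 to 24781.2 in littermates. There 4 of 5 of these markers had an unadjusted p under 0.05, against 8.09% of all genes. The Nav1.9 sums were 23443.3 to 23954.2 in KO and 24862.7 to 26534.1 in littermates. Nav1.9 KO sums were also lower for itch and C-fibre markers and higher for myelinated neuron markers, without overlap. The part of these markers in the receptor values was not tested. Of mast cells, a source of serotonin, 0 of 8 markers passed by limma in Nav1.7 KO DRG. Among them 1 had an unadjusted p under 0.05, near the share of all genes. Of platelets and blood, 0 of 4 measured markers passed and 1 had an unadjusted p under 0.05, *Pf4*, a platelet chemokine, at 0.54 (adjusted p = 0.12). Their sums did not overlap, at 531.9 to 761.8 in Nav1.7 KO arrays and 381.9 to 421.4 in littermates, with a median log2 difference of 0.46. Of 6 macrophage markers, 0 passed and 3 had an unadjusted p under 0.05, with sums of 1382.4 to 1931.1 in Nav1.7 KO arrays and 1171.1 to 1479.2 in littermates. The part of these cells in the receptor values was not tested.

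Over the 18 arrays, the genes whose values were most like those of *Htr4* were *Ppp1r1a* (Pearson r = 0.929, Spearman rho = 0.816), *Ctxn3* (r = 0.928, rho = 0.829) and *Gm16364* (r = 0.926, rho = 0.897). Those most like *Htr5b* were *Chd5* (r = 0.921, rho = 0.717), *Th* (r = 0.918, rho = 0.513) and *Cacna2d3* (r = 0.914, rho = 0.775). All 6 passed the test in Nav1.7 KO DRG, where *Gm16364* fell by 2.97 and *Th* fell by 2.26. The arrays share their group and line, so the likeness is in large part that of the groups.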

How the data were processed

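Affymetrix GeneChip mouse arrays of whole DRG were read, 18 in 6 groups of 3. The deposited values are log2 intensities that the authors obtained for every probe set with Affymetrix Expression Console, and that unit was inferred from their range. The summary method, the normalization and the tool's version are not given in the sources used here, and array medians lay between 6.33 and 6.36. No detection calls were used, so signal over background is not known. Groups came from the titles and genotype labels, since the source name is the same littermate label for all 18.

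After 64 control probe sets were left out, 34945 of 45037 probe sets had 1 gene symbol in the platform annotation, 932 had several and 9160 were not listed. Each gene was read by its brightest probe set named for it alone. All arrays entered 1 model of 6 group means (limma 3.58.1, lmFit then eBayes, R 4.3.3) with 12 residual and 3.44 prior degrees of freedom. Benjamini-Hochberg adjustment ran over all genes, or all probe sets, and 0.05 was the threshold. Intervals are at 95% and are not adjusted. Dim probe sets stayed in. The model was tested on simulated data.

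The receptors and gene lists were chosen with earlier results of these data known. All 10 receptors are named. Genes of the pathway lists are named where they passed in a KO comparison, up to 4 per list and line by p. *Gnas*, *Htr1f*, *Htr7*, *Tph2*, *Pf4*, the cell type markers that passed and the itch markers of Nav1.7 replicate 3 were chosen after their values were seen. Marker lists were also summed per array as linear intensities. The 3 genes of highest Pearson r are named for each receptor that passed.

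Alternatives were quantile normalization, each line fitted alone, array weights, a brightness filter (40th percentile), median centring, each array left out, the mean of a gene's probe sets, a robust prior with trend, each probe set tested separately, a replicate block, cross-hybridizing probe sets left out, the *Xist* class (log2 above or below 9) as a term or within 1 class, analysis of variance, and other thresholds. Leaving out both Nav1.7 replicate 3 arrays was added after the data were seen. Figures were drawn with matplotlib 3.10.9.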

Additional observations from a re-analysis of the deposited data

Results flagged for a closer look

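The KO effect on *Htr4* differed between lines by limma's test of the difference. The Nav1.7 effect minus the Nav1.8 effect was -1.38 on the log2 scale (adjusted p = 3.39e-05), and the Nav1.7 effect minus the Nav1.9 effect was -1.58 (adjusted p = 5.91e-06). All 3 Nav1.7 KO arrays were below their littermates, and the arrays of the other lines overlapped.

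The KO effect on *Htr5b* also differed between lines, by -0.86 for Nav1.7 minus Nav1.8 (adjusted p = 0.038) and by -1.20 for Nav1.7 minus Nav1.9 (adjusted p = 0.00365). The first of these was lost with the replicate number as a block (adjusted p = 0.0506) and without any 1 of 9 arrays (adjusted p = 0.051 to 0.0916). The Nav1.7 line is the 1 line with Cre under *Avil*, so channel loss and Cre cannot be told apart in these differences.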

How the results depend on the processing

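Of 239 alternative values other than those with 1 array left out, 224 kept their direction and their side of the threshold, as did 152 of 174 with 1 array left out, and 0 reversed. In Nav1.7 KO DRG, the *Htr4* difference stayed between -1.50 and -0.79 (adjusted p at most 0.00184) and that of *Htr5b* between -1.08 and -0.81 (adjusted p at most 0.0327) over 18 limma settings. The count of 2 receptors there became 0 with the analysis of variance after Benjamini-Hochberg adjustment (*Htr4* adjusted p = 0.0548, *Htr5b* 0.181), which uses 6 arrays and no moderation. In Nav1.9 KO DRG the analysis of variance at p under 0.01 gave 1 receptor, *Htr3a*, in place of 0. For the difference between the Nav1.7 and Nav1.8 effects, 2 receptors became 1 with every probe set tested separately and 1 with the replicate block (*Htr5b* adjusted p = 0.0506), and 1 to 2 with an array left out. Between Nav1.8 and Nav1.7 littermates, 2 became 1 with an *Xist* term and 0 where p was under 0.01 before adjustment with a fold over 1.5. Between Nav1.9 and Nav1.7 littermates, 2 became 1 with the *Xist* class, 0 at that p and fold, 4 at an adjusted p under 0.1, and 1 to 2 with an array left out. *Htr4* there lost its call without replicate 3 of the Nav1.7 littermates (-0.35, adjusted p = 0.0533) or of the Nav1.9 littermates (-0.31, adjusted p = 0.0564). Between Nav1.9 and Nav1.8 littermates, 1 became 2 with array weights, 2 at an adjusted p under 0.1, and 1 to 2 with an array left out. The cause of these shifts was not tested.

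Deviations of KO and littermate arrays with the same replicate number correlated at -0.12 to 0.27 over the 3 lines. In the Nav1.7 line they correlated at 0.01, 0.18 and 0.24, all positive, and both replicate 3 arrays stood apart as described above. The main model had no pairing, and an alternative entered the replicate number as a block. With the replicate block, 585, 2 and 38 genes were called in the Nav1.7, Nav1.8 and Nav1.9 lines in place of 787, 3 and 86. The block could not be fitted for differences between littermate groups. With 3 arrays a group, receptors of dim signal such as *Htr2b* and *Htr2c* could hide small changes.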

Other observations

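*Slc6a4*, the transporter that takes serotonin back into cells, read 6.00, 5.89 and 6.09 in Nav1.9 KO arrays, against 6.88, 6.00 and 6.59 in littermates. The difference of -0.50 did not pass (adjusted p = 0.235), and the groups overlapped at 6.00.

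Within groups, *Htr1d* and *Htr5b* deviated together over the 18 arrays (Pearson r = 0.70 of deviations from the group means). This was the highest value among all pairs of the measured receptors, and *Htr1d* was read by the probe set that can also bind related transcripts. *Htr4* and *Htr5b*, the receptors that were lower in Nav1.7 KO DRG, did not deviate together (r = -0.13). Over all 18 values the coefficient of the second pair was 0.74. These are descriptions noticed after the values were seen, and arrays of a group share their line and handling.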
